A study of Homo sapiens with 4 samples.

Results

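Chromosome 7 held 10108 of the 190348 accessible regions (peaks) counted by ATAC-seq in LM2 breast cancer cells, and all of them are described here. The members are every row of the deposited count table placed on chromosome 7, split into 5 Mb segments by peak midpoint and into gene-end peaks (1136, at most 1 kb from the start or end of a protein-coding gene) and other peaks (8972). The chromosome was chosen by measured values, the upward shift of its peaks in CECR2-deleted cells against the control, so the values of that comparison are given as a description, with no test, and support nothing further. Of the 10108 peaks, 9784 had enough counts for the fit and 324 did not, 1121 and 8663 of the fitted ones being gene-end and other peaks.

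In ATAC-seq a transposase, Tn5, inserts sequencing adapters into DNA that nucleosomes leave exposed. LM2 is a derivative of the human breast cancer line MDA-MB-231, selected for its raised potential to form lung metastases. The control group was 2 libraries of LM2 cells with the nontargeting control genotype, and the sg1 group was 2 libraries of LM2 cells with the genotype CECR2 deletion 1, each from 50000 cells. Both groups were grown as monolayers in DMEM with 10% FBS, 1% penicillin and puromycin. The sources used here do not say whether the deleted cells were 1 clone or a pool, or whether replicates came from separate cultures, so the spread between replicates may be technical.

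CECR2 is a bromodomain protein that binds acetylated histones and works with an ISWI ATPase, which slides nucleosomes along DNA. Chromosome 7 carries the receptor genes EGFR and MET, the kinase gene BRAF, the HOXA cluster of developmental regulators, EZH2 of the Polycomb complex, the cytokine gene IL6, and a cluster of claudin genes within the Williams syndrome region. Gene ends, mostly promoters, are usually open in many cell types, while peaks away from genes, mostly enhancers, are more particular to a cell type. A count at a peak depends both on the number of copies of the site in the cells and on how often each copy is cut, and these cannot be told apart in the counts.

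Promoter sequences of 6 chromosome 7 genes show the kinds of site the results turn on. EGFR, BRAF and EZH2 had gene-end peaks that were modestly higher in sg1, and CLDN4 and HSPB1 had gene-end peaks well above their surroundings. IL6 had one of the few tall gene-end peaks of chromosome 7 that were lower. Each sequence is the RefSeq window of GRCh38.p14 from 250 bases before to 50 bases after the gene's start, read 5′ to 3′ on the gene's strand. Capitals mark matches, on either strand, to the GC box (GGGCGG), the CCAAT box (CCAAT), the AP-1 motif (TGANTCA), the heat shock element (GAA and TTC with any 2 bases between them) and the NF-kB motif. Overlapping matches are printed as 1 run, and the heat shock and NF-kB motifs were added after values had been seen.
EGFR promoter, chr7:55018767-55019066, plus strand: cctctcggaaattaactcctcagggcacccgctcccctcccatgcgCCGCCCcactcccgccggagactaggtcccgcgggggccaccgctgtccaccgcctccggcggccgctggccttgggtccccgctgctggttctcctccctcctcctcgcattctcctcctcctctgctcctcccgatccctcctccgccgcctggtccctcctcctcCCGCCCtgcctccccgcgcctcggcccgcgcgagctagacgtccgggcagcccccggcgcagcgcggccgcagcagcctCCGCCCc
BRAF promoter, chr7:140924219-140924518, minus strand: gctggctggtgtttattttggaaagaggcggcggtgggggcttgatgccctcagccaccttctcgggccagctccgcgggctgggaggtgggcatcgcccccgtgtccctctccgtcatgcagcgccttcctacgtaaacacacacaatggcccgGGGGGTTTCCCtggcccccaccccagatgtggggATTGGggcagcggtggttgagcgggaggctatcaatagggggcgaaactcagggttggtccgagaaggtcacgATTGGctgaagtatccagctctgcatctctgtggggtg
EZH2 promoter, chr7:148884242-148884541, minus strand: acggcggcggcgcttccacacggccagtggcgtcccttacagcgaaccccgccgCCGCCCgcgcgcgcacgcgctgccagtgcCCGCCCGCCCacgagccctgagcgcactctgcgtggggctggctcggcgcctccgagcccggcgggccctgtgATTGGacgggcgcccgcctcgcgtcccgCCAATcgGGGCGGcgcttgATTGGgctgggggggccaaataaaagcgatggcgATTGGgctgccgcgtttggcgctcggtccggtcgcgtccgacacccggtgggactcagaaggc
CLDN4 promoter, chr7:73830746-73831045, plus strand: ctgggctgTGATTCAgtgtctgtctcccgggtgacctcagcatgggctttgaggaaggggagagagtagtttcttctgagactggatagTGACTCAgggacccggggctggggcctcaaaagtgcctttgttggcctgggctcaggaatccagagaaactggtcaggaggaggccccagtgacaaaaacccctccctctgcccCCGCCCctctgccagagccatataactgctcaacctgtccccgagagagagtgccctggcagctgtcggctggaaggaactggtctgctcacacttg
HSPB1 promoter, chr7:76302423-76302722, plus strand: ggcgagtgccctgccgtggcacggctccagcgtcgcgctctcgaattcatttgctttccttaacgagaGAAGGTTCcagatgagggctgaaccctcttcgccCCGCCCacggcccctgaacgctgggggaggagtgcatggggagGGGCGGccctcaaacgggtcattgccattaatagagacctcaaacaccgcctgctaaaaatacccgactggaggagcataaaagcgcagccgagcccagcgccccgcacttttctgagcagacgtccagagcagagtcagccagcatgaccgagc
IL6 promoter, chr7:22726950-22727249, plus strand: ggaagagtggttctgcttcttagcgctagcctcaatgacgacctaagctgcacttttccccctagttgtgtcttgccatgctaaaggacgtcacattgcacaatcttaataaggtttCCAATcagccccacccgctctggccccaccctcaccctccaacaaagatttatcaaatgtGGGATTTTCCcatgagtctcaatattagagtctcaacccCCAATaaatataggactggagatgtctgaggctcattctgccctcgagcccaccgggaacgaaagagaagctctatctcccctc
The EGFR, EZH2, CLDN4 and HSPB1 windows carried GC boxes, found in 58.5% of all 15843 promoter windows. The BRAF, EZH2 and IL6 windows carried CCAAT boxes, found in 36.4% of all windows. The CLDN4 window carried 2 AP-1 matches, a motif in 5.75% of windows, and the HSPB1 window 1 heat shock element, a motif in 5.56%. The IL6 and BRAF windows matched the NF-kB motif, found in 12.3%. A match describes letters in the window and is not evidence that a factor bound there.

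The libraries differed in depth. Outside 109 peaks at the start of chromosome 1, which were left out, 21002477 and 15561701 counts remained for the controls, and 43519018 and 38924086 for sg1. The median count of a chromosome 7 peak was 31 and 23 for the controls, and 74 and 67 for sg1. Levels are given as CPM, that is, counts scaled to library size with TMM factors, with the mean ± SD of the 2 libraries of a group. A positive log2 fold change means a higher level in sg1. The 5 fitted CECR2 peaks on chromosome 22 had log2 fold changes from −0.61 to 0.45, and none was absent in sg1. The tallest, within the gene, went from 7.77 ± 1.23 to 10.3 ± 1.39 CPM (0.39) and was called higher, and the others were not called. The 5 mesenchymal markers (VIM, AXL, CD44, CAV1, ZEB1) had gene-end peaks of 18.4 to 85.4 CPM in the control, and summed to 206.4 in the control and 198.8 in sg1. The 4 epithelial markers ran from 0.617 at CDH1 to 14.9 at EPCAM, with sums of 29.7 and 34.4, and 3 luminal ones from 4.81 at GATA3 to 17.2 at KRT8, with sums of 32.1 and 38.9. Of these, GRHL2 (0.63) and GATA3 (0.76) were called higher in sg1. The 4 blood cell markers ran from 0.861 at PTPRC to 32.0 at CD3E, with sums of 42.8 and 38.3, and CD3E was called lower. KDR of endothelial cells had 10.1 and 12.6. ESR1, CD79A, PECAM1 and CDH5 had no gene-end peak with enough counts. Markers of other cells were thus accessible too, and their part in the results was not tested.

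Chromosome 7 took a larger share of all counts in both sg1 libraries than in either control. The controls gave 4.61% and 4.62% and the sg1 libraries 5.16% and 5.17%. The 95% Wilson intervals, which cover counting error only, were 4.61% to 4.63% for the shallowest library and 5.16% to 5.17% for the deepest. The group means were 4.62% ± 0.00545 and 5.17% ± 0.00328 (SD, n = 2), a ratio of 1.12, so that the gap was far wider than the replicate spread. Among gene-end counts alone the chromosome's share went from 4.26% ± 0.0188 to 4.86% ± 0.0160, and among counts at other peaks from 4.76% ± 0.0150 to 5.30% ± 0.00127. Chromosome 7 was not alone in gaining. Chromosome 12 went from 4.29% to 4.67%, 17 from 4.80% to 5.18% and 19 from 3.63% to 3.98%. Their ratios were 1.09, 1.08 and 1.09. Shares are relative, so larger shares on some chromosomes are matched by smaller shares on others: chromosome 2 went from 6.99% to 6.31% and chromosome X from 2.18% to 1.80%.

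Peak by peak, the median log2 fold change on chromosome 7 was 0.21, with quartiles of −0.23 and 0.61, against 0.01 over the other chromosomes. In each of the 4 pairings of an sg1 with a control library, the chromosome 7 median of log2(CPM + 0.5) differences lay between 0.16 and 0.17. Between the 2 control libraries it was −0.002 and between the 2 sg1 libraries 0.004. In edgeR's quasi-likelihood fit over 184717 peaks with Benjamini-Hochberg adjustment at 0.05, 2093 chromosome 7 peaks were higher in sg1 (21.4%), against 11.5% of all peaks. In the same fit, 1143 were lower (11.7%), against 16.8% of all peaks. Fewer were called with fewer libraries: the counts were 1198 and 725 without sg1 replicate 1, and 1197 and 699 without sg1 replicate 2. With DESeq2 they were 938 and 660, where 4.93% and 10.4% of all peaks were called.

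**Figure D1:**
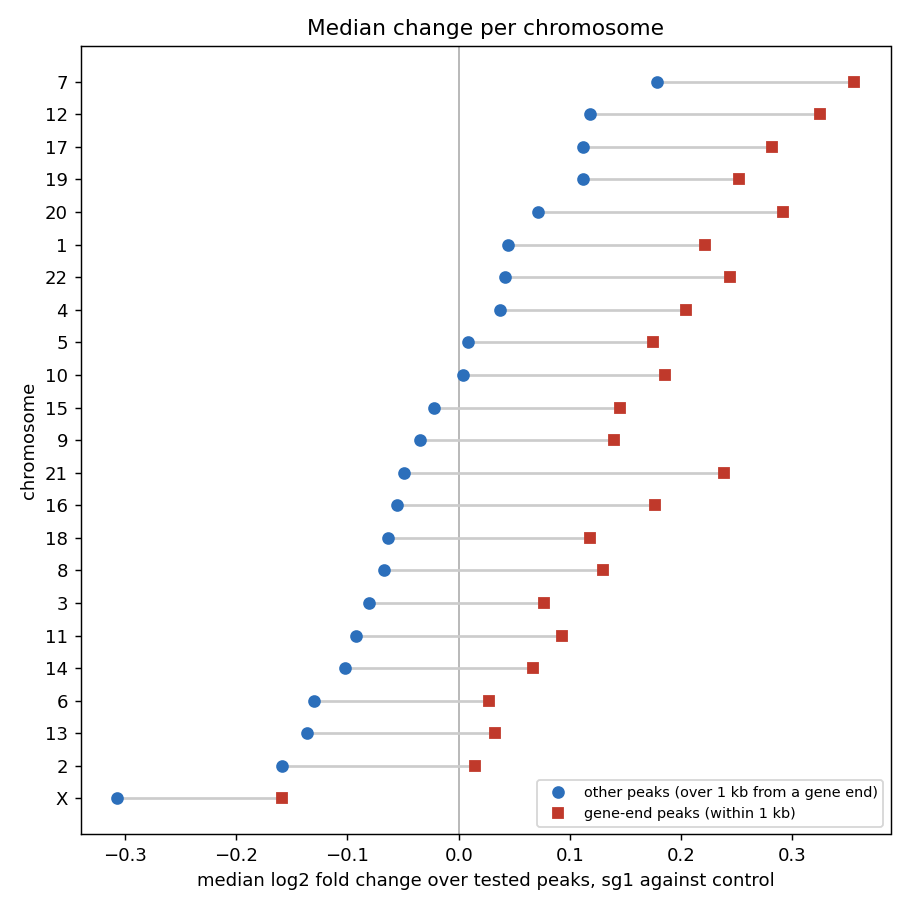
Median log2 fold change (sg1 against control) per chromosome, for gene-end peaks (squares) and other peaks (circles), ordered by the latter; chromosome Y is left out. Chromosome 7 stands at the top for both kinds, at 0.36 and 0.18, and chromosome X at the bottom.

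Both kinds of peak were shifted, by about the same amount. At gene ends the chromosome 7 median was 0.36 against 0.16 elsewhere, and at other peaks 0.18 against −0.03 elsewhere. The difference was thus 0.20 at gene ends and 0.21 at other positions. Of the 1121 gene-end peaks, 484 were higher (43.2%) and 35 lower (3.12%), where 21.2% and 7.28% of all gene-end peaks were called. Of the 8663 other peaks, 1609 were higher (18.6%) and 1108 lower (12.8%), where 10.1% and 18.2% of all other peaks were called. Chromosome 7 ranked first of 23 chromosomes in both medians. At gene ends chromosomes 12, 20, 17 and 19 came next, with medians of 0.33, 0.29, 0.28 and 0.25. At other peaks the order was 12, 17 and 19, with medians of 0.12, 0.11 and 0.11, then 20 with 0.07.

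The shift was present at every distance from genes, peak height and peak length examined. Chromosome 7 peaks within 1 kb of a gene end exceeded those of other chromosomes by 0.20, peaks at 50 to 200 kb by 0.18 and the 973 peaks over 200 kb from any gene end by 0.30. In 5 classes of control level the difference lay between 0.18 and 0.22, and in 5 classes of peak length between 0.20 and 0.23. Control level enters the fold change itself, so the lowest class had raised medians on chromosome 7 (0.75) and over the other chromosomes together (0.53); classes of mean CPM over the 4 libraries gave 0.19 to 0.28 at gene ends and 0.18 to 0.24 at other peaks. The 286 peaks just inside the 1 kb limit, in its outer 0.5 kb, had a median of 0.32, and the 199 in the next 0.5 kb had 0.24, against 0.14 and 0.07 elsewhere. Base composition was close: the 498 chromosome 7 promoters under a fitted peak had a median GC content of 66.0% against 65.7% for 10038 elsewhere. In 5 classes of promoter GC content the chromosome 7 median exceeded the others by 0.17 to 0.21.

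Almost the whole distribution was displaced, not only one tail. The 5th percentile of log2 fold change was 0.17 higher on chromosome 7 than elsewhere, the 25th 0.21, the 75th 0.23 and the 95th 0.36. At peaks with a mean of at least 100 counts (3337 on chromosome 7) these differences were 0.15, 0.20, 0.19 and 0.27. As fitted, 30.9% of chromosome 7 peaks lay above a log2 fold change of 0.5 and 17.1% below −0.5. With the median difference of 0.21 taken off, the shares became 21.2% and 22.8%, beside 19.6% and 22.7% elsewhere. Summed over peaks, which weights tall peaks, the level went from 46936 ± 143 to 50814 ± 163 CPM, a log2 ratio of 0.11, while the sum elsewhere had a log2 ratio of −0.06.

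**Figure D2:**
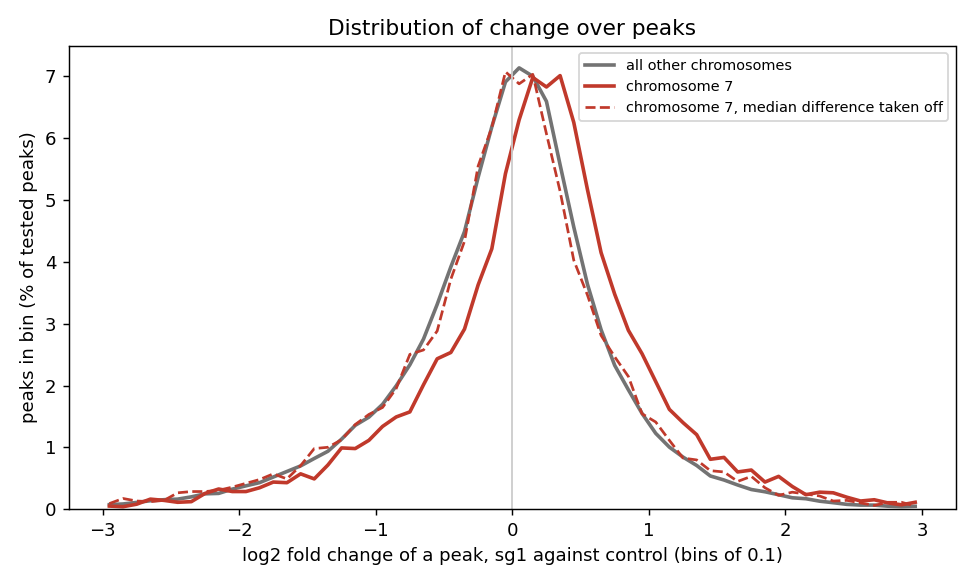
Share of fitted peaks (%) per bin of log2 fold change (sg1 against control) on chromosome 7, on all other chromosomes, and on chromosome 7 with the median difference of 0.21 subtracted. The subtracted curve lies close to that of the other chromosomes.

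At the scale of 5 Mb segments, the displacement was present along the whole chromosome. All 32 segments of 5 Mb had a median log2 fold change above 0, from 0.01 to 0.38, and 31 of them (96.9%) lay above the median of all peaks, 0.02. On the other chromosomes together 219 of 558 segments (39.2%) did. Some single chromosomes came near this or went beyond it. On chromosome 17 it was 17 of 17 segments, on 22 it was 8 of 9 and on 20 it was 11 of 13. Chromosomes 19 and 12 had 10 of 12 and 22 of 27. The count of 32 above 0 held in the settings tried except without sg1 replicate 2, where 31 were above 0 and the lowest was −0.001. By comparison 3 of 49 segments of chromosome 2 lay above the median of all peaks. Higher peaks outnumbered lower ones in 28 of the 32 segments, against 123 of 558 on the other chromosomes. Of the 32, 28 ranked in the top 25% of all 590 segments.

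Within each segment the libraries of a group lay close together. The 2 controls differed in summed CPM by −0.09 to 0.03 on the log2 scale, and the 2 sg1 libraries by −0.04 to 0.02. Both sg1 sums lay above both control sums in 30 of 32 segments (93.8%), where 24.6% of all 590 segments did so. The largest ratio was that of the segment from 70 to 75 Mb, at 1646 and 1630 CPM in the controls and 2014 and 2024 in sg1, a log2 ratio of 0.30. The segment from 60 to 65 Mb, with 28 fitted peaks, was the one in which the groups overlapped, at 220.9 and 206.8 CPM against 221.7 and 216.0. The last segment, from 155 to 160 Mb, was the one in which both sg1 sums were lower, at 2458 and 2438 CPM against 2278 and 2307. Over all segments, 70.5% had both sg1 sums below both controls.

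**Figure D3:**
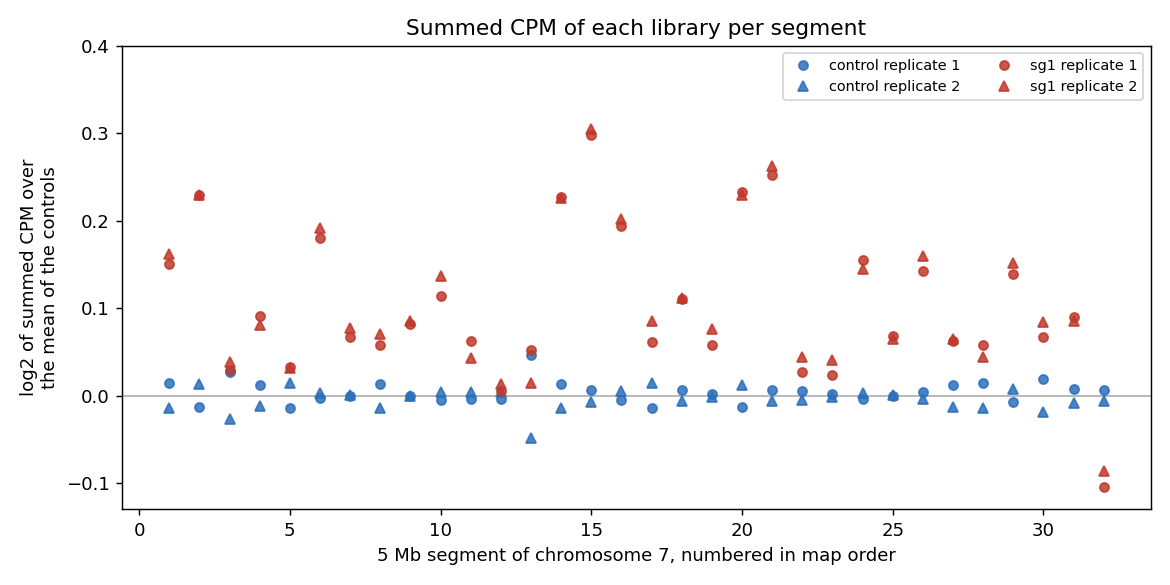
Log2 of the summed CPM of each library in each 5 Mb segment of chromosome 7, relative to the mean of the controls. The sg1 libraries lie above both controls in 30 segments, overlap them in segment 13 and lie below in segment 32.

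Segments still differed in size. The highest medians, both 0.38, were at 70 to 75 Mb, which holds CLDN3, CLDN4, BAZ1B and GTF2I, and at 100 to 105 Mb, the segment with the most genes (90). The lowest were at 155 to 160 Mb (0.01, with 41 peaks higher and 78 lower), at 55 to 60 Mb (0.03) and at 145 to 150 Mb (0.06). The segment from 155 to 160 Mb was mixed: its 23 gene-end peaks had a median of 0.40, while its other peaks had a median of 0.00. Both sides of the widest stretch without peaks, 2.60 Mb between chr7:60419031-63015664, were alike, with medians of 0.21 over 3791 peaks and 0.22 over 5993. On a finer scale, 128 of 140 bins of 1 Mb with at least 20 fitted peaks (91.4%) had a median above 0. These ranged from −0.61 at 145 to 146 Mb, with 24 peaks, to 1.08 at 9 to 10 Mb, with 27 peaks. Bins of so few peaks are imprecise. The bin at 31 to 32 Mb held 59 fitted peaks and had a median of −0.47, with 2 peaks higher and 17 lower. Bins of 1 Mb were taken on chromosome 7 only.

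**Figure D4:**
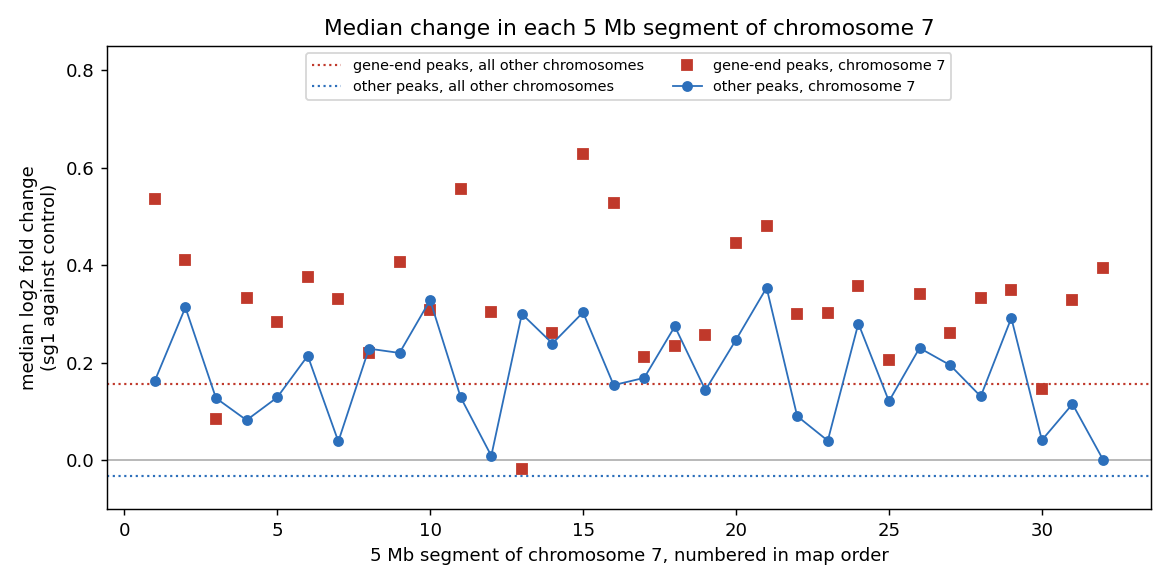
Median log2 fold change (sg1 against control) of gene-end peaks (squares) and other peaks (circles) in each 5 Mb segment of chromosome 7, with the medians over all other chromosomes as dotted lines. All 32 medians of other peaks lie above their dotted line; the gene-end medians range from −0.02 in segment 13 to 0.63 in segment 15.

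Segments with more genes tended to have higher medians, on chromosome 7 and elsewhere. Across the 32 segments the median correlated with the number of protein-coding genes at Pearson's r = 0.50 (Spearman's rho = 0.42). With the share of gene-end peaks it correlated at r = 0.34 (rho = 0.32). Over the 558 segments elsewhere the values were r = 0.37 (rho = 0.38) for genes and r = 0.32 (rho = 0.32) for the share. The segments share their libraries and are neighbours on a chromosome, so these are descriptions. Gene-end and other medians of the same segment were weakly related on chromosome 7 (r = 0.14, rho = 0.23, n = 32), and more closely over 549 segments elsewhere (r = 0.64, rho = 0.66). The segments elsewhere are pooled over chromosomes, so their correlation also holds differences between chromosomes, which a single chromosome cannot have. The values therefore do not show whether chromosome 7 differs in this from other single chromosomes.

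Which segment a peak lay in accounted for little of its own change. On chromosome 7 the segments took up 1.75% of the variance of log2 fold changes (7.25% at gene ends), against 3.70% elsewhere. The value elsewhere is pooled over chromosomes and includes differences between them, so it is not a like measure for 1 chromosome. The SD of log2 fold changes around the segment mean was 0.90, far more than the SD of 0.10 between segment medians. In all, 1906 peaks (19.5%) lay more than 1 log2 unit from the median of their segment, 843 above and 1063 below, against 17.2% elsewhere. Set against the median of their own kind of peak in the segment, 74 gene-end peaks (6.60%) and 1823 other peaks (21.0%) lay that far away. At the 3337 peaks with a mean of at least 100 counts, the SD around the segment mean was 0.52. Of these, 6.56% lay over 1 log2 unit from the segment median of such peaks, 74 above and 145 below, against 5.25% elsewhere. The displacement thus sat under scatter in both directions, which was smaller at peaks with more counts. This scatter holds counting error as well as any local change, and these were not separated.

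Each gene was read at its tallest gene-end peak, and 610 different peaks stood for 672 of the 938 protein-coding genes. Of these, 364 were higher (59.7%), 20 lower (3.28%) and 226 not called, with a median of 0.34. Over all genes 30.2% of such peaks were higher and 8.95% lower, and off chromosome 7 the median was 0.14.

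Of the receptor and signalling genes, EGFR, the epidermal growth factor receptor, had 19.6 and 18.6 CPM in the controls and 24.3 and 24.6 in sg1 at chr7:55018528-55019637. The group means were 19.1 ± 0.709 and 24.4 ± 0.199 and did not overlap, with a log2 fold change of 0.35 (SE 0.09). MET, the receptor of hepatocyte growth factor, went from 34.8 ± 1.56 to 40.8 ± 1.45, a change of 0.23 (SE 0.07) that lost its call in DESeq2 and without control replicate 2 or sg1 replicate 2. BRAF, the kinase that relays RAS signals, had 13.3 and 11.9 against 18.8 and 19.5 CPM at chr7:140923992-140925359, a change of 0.60 (SE 0.10). RHEB, the GTPase that activates mTORC1, went from 50.5 ± 4.05 to 64.9 ± 0.0657 CPM (0.36).

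In all, 13 of the 21 growth factor signalling genes with a fitted gene-end peak were higher (61.9%) and 2 lower (9.52%). All chromosome 7 genes gave 59.7% and 3.28%. The list median was 0.28, with changes from −1.10 to 2.29, against 0.34 for all chromosome 7 genes. SMURF1, a ubiquitin ligase of the TGF-beta pathway, went from 11.3 ± 1.0 to 21.9 ± 0.50 CPM (0.95). CDK6, the cell cycle kinase, was not called: the controls had 5.15 and 5.67 CPM and sg1 7.04 and 5.67, the lower sg1 library lying barely above the higher control. FZD1, a WNT receptor, was also not called, at 46.1 ± 0.224 and 51.5 ± 0.208. Those lower were FZD9, another WNT receptor, at 7.77 ± 0.619 and 3.63 ± 0.565 CPM (−1.10), and CDK5, a kinase best known from neurons. CDK5 shares its peak with SLC4A2, and its change of −0.17 lost its call in 7 settings, among them both scaling alternatives and DESeq2.

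Of 27 genes listed as chromatin regulators, 17 were higher (63.0%) and 0 lower, with a median of 0.43. These shares were near those of all chromosome 7 genes. The list was broad: DNAJB6, SSBP1, ACTR3B and LMTK2, all higher, are not chromatin regulators in the strict sense. EZH2, the histone methyltransferase of Polycomb complex PRC2, had 25.7 and 23.4 CPM in the controls and 32.5 and 35.1 in sg1 at chr7:148883841-148885190, a change of 0.46 (SE 0.08). TRIM24, a bromodomain reader, went from 48.5 ± 1.67 to 61.4 ± 1.36 (0.34). BAZ1B, a partner of ISWI remodellers, went from 27.5 ± 1.6 to 39.9 ± 1.97 (0.53), and KMT2C, a histone H3 lysine methyltransferase, from 8.74 ± 0.348 to 13.6 ± 1.31 (0.64). SP4, a GC box binding factor, was not called at 43.4 ± 3.63 and 44.1 ± 2.90, nor was KMT2E at 34.7 ± 0.828 and 39.3 ± 0.410.

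The genes of basic cell functions had 21 of 37 peaks higher (56.8%), 0 lower and a median of 0.30, again near the shares of all chromosome 7 genes. ACTB, which encodes beta-actin, had 23.5 and 24.7 CPM in the controls and 38.4 and 37.0 in sg1 at chr7:5529630-5530928, a change of 0.65 (SE 0.08). GUSB, a lysosomal enzyme gene often used as a reference gene, went from 6.69 ± 0.625 to 11.3 ± 1.34 (0.74). HSPB1, a small heat shock protein gene, had 5.24 and 6.19 against 11.2 and 13.3 CPM at chr7:76302190-76303179, a change of 1.11 (SE 0.15) in a segment with a median of 0.26. The tallest peaks of the list were not called: DBF4, an activator of the replication kinase CDC7, at 46.0 ± 0.224 and 45.9 ± 0.904, NDUFB2 of respiratory complex I at 40.9 ± 0.729 and 46.1 ± 0.988, and CYCS, cytochrome c, at 38.4 ± 2.31 and 43.0 ± 0.0978. DBF4 and CYCS share their peaks with SLC25A40 and SPMIP4.

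**Figure D5:**
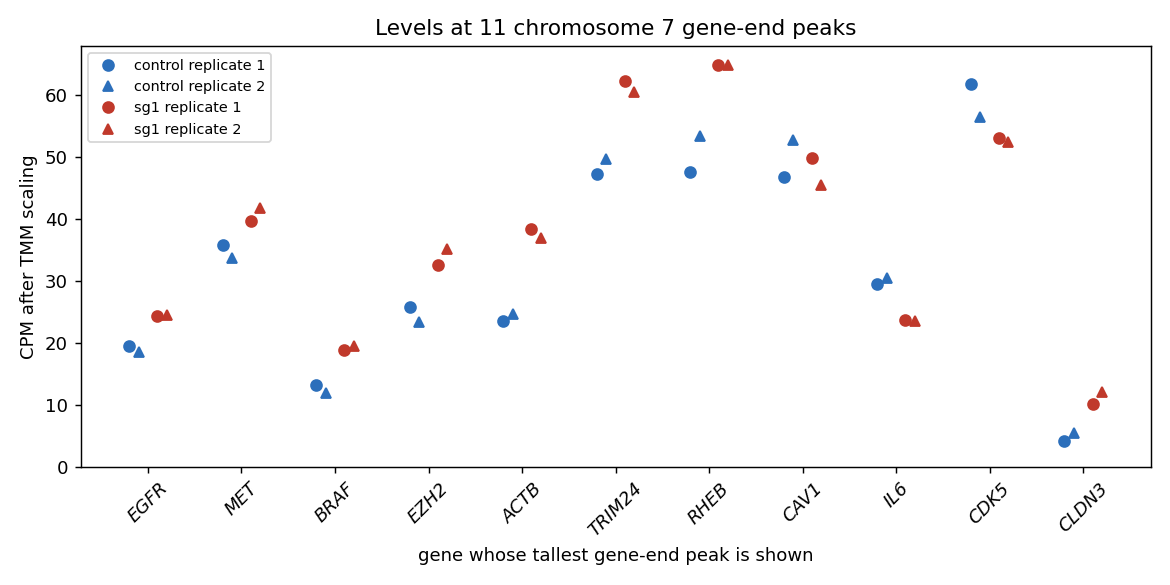
CPM of each library at the tallest gene-end peak of 11 chromosome 7 genes; circles and triangles are replicates 1 and 2. In EGFR, MET, BRAF, EZH2, ACTB, TRIM24, RHEB and CLDN3 both sg1 libraries lie above both controls, in CDK5 and IL6 below them, and in CAV1 the groups overlap.

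In the invasion and matrix list 10 of 27 were higher (37.0%) and 2 lower (7.41%), with a median of 0.27. All chromosome 7 genes gave 59.7% higher, 3.28% lower and a median of 0.34. CAV1, caveolin-1, had 46.7 and 52.7 CPM in the controls and 49.9 and 45.5 in sg1 and was not called. FSCN1, an actin-bundling protein gene, went from 38.5 ± 2.64 to 47.0 ± 0.516 (0.28), and CAV2 from 34.9 ± 2.80 to 43.6 ± 2.59 (0.32). PCOLCE, an enhancer of procollagen processing, was lower at 5.35 ± 0.632 and 1.86 ± 0.338 (−1.51), and so was CALD1, the actin binder caldesmon, at 7.02 ± 0.111 and 3.19 ± 0.462 (−1.14). That is the tallest gene-end peak of CALD1; the peak over its RefSeq promoter window, chr7:134779202-134779982, had a log2 fold change of −0.11.

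In the inflammation and immunity list 9 of 24 were higher (37.5%) and 3 lower (12.5%), with a median of 0.25. The shares over all chromosome 7 genes were 59.7% and 3.28%. IL6, the cytokine interleukin-6, had 29.5 and 30.5 CPM in the controls and 23.7 and 23.5 in sg1 at chr7:22726808-22727733. Its log2 fold change was −0.35 (SE 0.08), and its departure from the median of its segment was −0.51. The others lower were PILRA, an inhibitory receptor of myeloid cells, at 4.59 ± 0.0374 and 2.45 ± 0.239 (−0.90), and AZGP1, a secreted zinc-binding glycoprotein, at 4.32 ± 0.486 and 2.64 ± 0.890 (−0.73). NAMPT, an enzyme of NAD synthesis that is also secreted, was higher at 41.9 ± 2.87 and 51.7 ± 1.54 (0.30). ZC3HAV1, an antiviral zinc finger protein gene, was at 34.0 ± 2.02 and 42.4 ± 0.107 (0.32). NOD1, a sensor of bacterial peptidoglycan, was at 21.7 ± 1.34 and 28.0 ± 1.66 (0.36), and IRF5, an interferon regulatory factor, was not called at 7.99 ± 1.14 and 8.80 ± 0.378. TAX1BP1, a brake on NF-kB signalling, went from 24.0 ± 2.50 to 29.7 ± 1.21 (0.32) and lost its call without control replicate 1 or sg1 replicate 2.

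Of the 4 claudins, the membrane proteins of tight junctions, 3 were higher and 0 lower, with a median of 1.18. Over all chromosome 7 genes 59.7% were higher and 3.28% lower, and 4 genes are few to set against that. CLDN3 had 4.17 and 5.41 CPM in the controls and 10.2 and 12.2 in sg1 at chr7:73769997-73770873, a change of 1.24 (SE 0.16). At CLDN4 the tallest gene-end peak went from 3.33 ± 0.175 to 7.20 ± 0.342 CPM (1.12, SE 0.18). The peak over its start, chr7:73830758-73831114, had 0.777 and 0.586 against 4.85 and 4.08 CPM, a change of 2.68 (SE 0.30), and this is the peak that spans most of the promoter printed above. Another CLDN4 peak, chr7:73831185-73831688, went from 0.933 ± 0.122 to 3.80 ± 0.529 (log2 fold change 2.0). All 3 lie in the segment with a median of 0.38. CLDN12, which lies in another segment, was not called at 20.9 ± 1.32 and 19.5 ± 0.303, and CLDN15 had only 3 control counts in all.

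The HOXA cluster was mostly closed in these cells. Of its 13 list members, 9, HOXA9 among them, had no fitted gene-end peak. HOXA13, a gene of limb and gut patterning, was at 14.0 ± 0.501 and 15.1 ± 1.67 CPM and was not called. A peak shared by HOXA10 and HOXA11 was at 3.11 ± 0.209 and 3.90 ± 0.250 and was not called. SKAP2, the adaptor protein gene beside the cluster, went from 24.8 ± 0.120 to 31.8 ± 1.71 (0.36).

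The long loci of brain genes had 11 of 16 higher (68.8%) and 0 lower, with a median of 0.39, where all chromosome 7 genes had 59.7% and 3.28%. CACNA2D1, a calcium channel subunit gene, went from 38.2 ± 0.419 to 45.1 ± 1.99 (0.24), losing its call without sg1 replicate 1. CADPS2, a gene of vesicle release, went from 29.3 ± 1.42 to 38.0 ± 1.86 (0.37), and FOXP2, a transcription factor gene tied to speech, from 23.1 ± 0.433 to 28.4 ± 0.373 (0.30). PCLO, of the presynaptic zone, was not called at 36.8 ± 2.51 and 41.2 ± 0.768.

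In the list of drug transport and response 9 of 12 were higher (75%) and 2 lower (16.7%), with a median of 0.38. For all chromosome 7 genes the shares were 59.7% and 3.28%, and a list of 12 is small. CYP51A1, an enzyme of cholesterol synthesis, went from 33.6 ± 2.60 to 45.8 ± 0.358 (0.44), and AHR, the aryl hydrocarbon receptor, from 19.9 ± 2.22 to 25.3 ± 1.82 (0.35). ABCB8, a mitochondrial transporter, and SLC25A13, a mitochondrial aspartate and glutamate carrier, had changes of 0.18 and 0.20. Both lost their calls in DESeq2 and without control replicate 1 or either sg1 replicate. CYP3A5, a drug-metabolising cytochrome, was lower at 11.3 ± 2.15 and 6.66 ± 0.791 (−0.77), and SLC13A4, a sulfate transporter that shares its peak with FAM180A, at 3.79 ± 0.477 and 1.93 ± 0.434 (−0.98).

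The largest changes at gene ends were at low peaks. Among called peaks with groups apart and at least 30 scaled counts in the higher group, the largest upward besides CLDN4 were LRRC17 (0.202 ± 0.194 to 1.47 ± 0.319 CPM, 2.71), GTF2I (0.374 ± 0.392 to 2.18 ± 0.295, 2.68), EPHB6, an ephrin receptor gene (0.300 ± 0.0561 to 1.51 ± 0.0889, 2.29), and a peak shared by VGF and NAT16 (0.414 ± 0.243 to 1.59 ± 0.140, 2.01). Single control libraries set the size at the lowest of these: LRRC17 had 4.42 without control replicate 1, and GTF2I 1.74 without control replicate 1 and 4.44 without control replicate 2. GTF2I lost its call in DESeq2 and lies among near-identical copies, and the sources used here do not say how reads of such copies were counted.

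Downward, the largest at gene ends were at UBE3C, a ubiquitin ligase gene (1.78 ± 0.249 to 0.316 ± 0.160 CPM, −2.45), and at NIPSNAP2, a mitochondrial protein gene. NIPSNAP2 had 5.87 and 6.45 CPM in the controls and 1.2 and 1.37 in sg1, a change of −2.26. A peak within ELFN1, at the end of LOC124901819, had a change of −2.20, a low peak of AKR1B1, the aldose reductase gene, −2.09, and one of UBE2H, a ubiquitin-conjugating enzyme gene, −1.93. The tallest AKR1B1 peak was higher, at 22 ± 1.43 and 29.5 ± 0.662 CPM (0.43). A peak shared by LRWD1 and POLR2J had −2.13 and lost its call without control replicate 2. UBE3C and NIPSNAP2 lie in the segments with medians of 0.01 and 0.03, and the others in segments with medians of 0.21 to 0.38.

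Away from gene ends some peaks were nearly absent in 1 group. A peak in LAMB1, a laminin gene, chr7:107952612-107952776, had 0 and 0 counts in the controls and 49 and 40 in sg1. A peak in EXOC4, an exocyst gene, chr7:133275779-133276020, had 1 and 0 against 58 and 56. Peaks nearest to GTF2IRD2B and SPDYE10 had 6 and 0 against 136 and 112 counts, and 3 and 2 against 115 and 88; both lie among duplicated sequence, with the same limit as GTF2I. In the other direction, a peak nearest to GLI3, a transcription factor of Hedgehog signalling, chr7:41870525-41870922, had 39 and 39 counts in the controls and 3 and 3 in the deeper sg1 libraries. A peak in HDAC9, a histone deacetylase gene, had 43 and 29 against 7 and 6, and a peak near GRM3, a glutamate receptor gene, 41 and 29 against 8 and 6. A peak near SUGCT went from 5.59 ± 1.11 to 0.437 ± 0.116 CPM (−3.64). The LAMB1 and EXOC4 peaks are given without a fold because their control counts were 0 or 1.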

How the data were processed

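ATAC-seq counts of 4 libraries were analysed, 2 control and 2 sg1. The deposited table holds raw counts of transposase cut sites per peak, made by the authors with featureCounts 1.6.0, per the file headers. Per the submitters' processing notes, Trimmomatic 0.39, Bowtie2, MACS2 2.2.4 and DESeq2 1.32 were also used; the sources used here do not give their roles or the genome build. The build was checked on chromosome 7: 72.1% of 938 RefSeq (GRCh38.p14) genes had a peak at an end, against 30.1% and 29.1% after shifts of 100 kb.

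The whole table was fitted in edgeR 4.0.16 (filterByExpr, TMM, quasi-likelihood F test on group, Benjamini-Hochberg FDR of 0.05), without 109 peaks starting within 250 kb of the start of chromosome 1. The common dispersion was 0.0066 (biological coefficient of variation 8.13%). The fit was tested on simulated data. Segments count from position 1. Promoter windows and motifs were read in Python 3.11.15, and 799 chromosome 7 genes had a window. The alternatives were other scalings, DESeq2 1.42.0, filters, a replicate block, other segment sizes and distances, and leaving out each library.

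The members and the 9 gene lists were chosen with earlier results of these data known. Named peaks are the 3 tallest of each list; per direction the 6 gene-end and 4 other called peaks with the largest fold, groups not overlapping, and at least 30 scaled counts; the 4 gene-end peaks farthest from their segment median; and EGFR, MET, CDK6, BRAF, EZH2, IL6, CAV1, HOXA9, ACTB and CECR2; 1 further gene of this rule is not reported here. BAZ1B, KMT2C, SMURF1, GUSB, HSPB1, NOD1, IRF5, AHR, FOXP2 and the lower members of lists were named after their values were seen.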

Additional observations from a re-analysis of the deposited data

Results flagged for a closer look

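One signal lay in data outside the comparisons: the 109 peaks at the start of chromosome 1, left out of every fit. They held 25.4% ± 0.0313 of the counts of the sg1 libraries and 17.9% ± 0.0775 of those of the controls (SD, n = 2). Keeping them in the fit gave a chromosome 7 median of 0.21 and 2105 higher and 1160 lower peaks.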

How the results depend on the processing

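The chromosome 7 median exceeded that of the other chromosomes by 0.21 to 0.22 in every setting of the fit. Its own size depended on scaling: library size alone gave 0.26 over all its peaks, 0.40 at gene ends and 0.23 at other peaks, and moved the median of all peaks from 0.02 to 0.06, so changes are best read relative to it. TMM from peaks outside chromosome 7 gave 0.22, 0.36 and 0.19. DESeq2 gave 0.23, 0.36 and 0.19, with 938 higher and 660 lower peaks and 100% of segments above the median of all peaks. Without a filter on low counts the values were 0.22 over all its peaks, 0.19 at other peaks and 100% of segments. At peaks with a mean of at least 50 counts the median was 0.20, and the ratio of summed CPM was 0.11. A gene-end distance of 5 kb gave 0.31 and 0.17. Segments of 2 Mb gave 94.6% and of 10 Mb 100%. Among called chromosome 7 peaks the share that was higher ran from 58.7% (DESeq2) to 68.9% (library size alone), and was 64.7% in the edgeR fit with TMM. Of called peaks on all chromosomes, 21261 were higher and 31038 lower in that fit, and 8475 and 17866 with DESeq2.

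Leaving out 1 library at a time gave 1197 to 1947 higher and 699 to 1076 lower peaks, medians of 0.21 to 0.23 over all its peaks, 0.35 to 0.38 at gene ends and 0.16 to 0.19 at other peaks, and 96.9% to 100% of segments. No pairing by replicate number was seen: the replicate differences of the 2 groups correlated at 0.0001 over all peaks and −0.03 on chromosome 7. Counting error at low peaks could hide a weak shared effect, so these values cannot exclude pairing. With the replicate number as a block, 2097 peaks were higher and 1109 lower, CDK5 and SLC25A13 lost their calls, the median was 0.22 and 100% of segments lay above the median of all peaks. Of 55 named peaks, 42 were called; 34 kept their call in every setting, 8 lost it in at least 1, and 0 reversed. Depth limits low peaks: the sg1 libraries were on average 2.25 times as deep as the controls.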

Other observations

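Promoters were also grouped by motif content. Among the 498 chromosome 7 promoters under a fitted peak, the 363 with a GC box (GGGCGG, either strand) had a median log2 fold change of 0.36 and those without 0.27; elsewhere the medians were 0.17 and 0.11. The 181 with a CCAAT box had a median of 0.26 and those without 0.40; elsewhere they were 0.11 and 0.18. The AP-1 motif was in 26 of the 498, with a median of 0.47 against 0.34 without it, while elsewhere the medians were 0.14 and 0.16. The TEAD motif (GGAATG) was in 47, with a median of 0.33 against 0.35 (elsewhere 0.13 and 0.16), and the E-box CACGTG in 49, with 0.35 against 0.34 (elsewhere 0.22 and 0.15). The heat shock element was in 28, with 0.36 against 0.34 (elsewhere 0.12 and 0.16), and the NF-kB motif in 60, with 0.36 against 0.34 (elsewhere 0.16 and 0.15). The medians with and without AP-1, and with and without the heat shock element, were thus ordered oppositely on chromosome 7 and elsewhere. These medians come from the contrast that chose the chromosome and were not tested.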
